A study of Mus musculus with 2 samples.

Results

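Exhausted CD8 T cells were 421 of 19950 kept barcodes in a single-cell RNA study of mouse tumors, 215 in the MWA library and 206 in the MWA plus TIGIT library. They were chosen by their own unique molecular identifier (UMI) counts, that is, by counted RNA molecules. Barcodes with fewer than 200 genes, or with over 10% of their UMIs from mitochondrial genes, were dropped. A kept barcode then needed at least 2 UMIs of Cd3d, Cd3e and Cd3g together, at least 1 of Cd8a and Cd8b1, 0 of Cd4 and under 10 of the complement genes C1qa, C1qb and C1qc. Cells with 2 or more UMIs of Mki67, Top2a and Birc5 (cycling) or 3 or more of Ifit1, Ifit3, Rsad2 and Usp18 (interferon-induced) were left out. Of the remaining 2773 CD8 T cells, those with at least 2 UMIs of Pdcd1, Havcr2 and Lag3 together were taken as exhausted. These 3 genes encode the inhibitory receptors PD-1, TIM-3 and LAG-3, and their levels are therefore a description of the choice and not a result.

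The cells came from male young adult C57BL/6 mice with MC38 tumors, a mouse colon cancer line, in both flanks. All mice had microwave ablation (MWA), the heating of a tumor by microwaves, of the right tumor once it had reached about 300 mm3, and the CD45+ immune cells of the left tumor, which was not ablated, were enriched, sorted and loaded for 10x 3′ sequencing on day 8. The MWA plus TIGIT mice also had a blocking antibody against the inhibitory receptor TIGIT, by intraperitoneal injection 3 times, every 3 days from 1 day after MWA. Each group was 1 library, and the number of mice behind it was not given. No test between the groups was therefore possible, and every interval below covers counting error only. UMIs of one gene were often concentrated in few cells, so these intervals are narrower than the spread between cells would make them.

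Exhaustion is the state that T cells enter when they meet their antigen for a long time, as in tumors and chronic infection. Such cells keep several inhibitory receptors on their surface and hold a program set by the nuclear factor TOX and the NFAT and NR4A factors. They lose the memory and recirculation program of TCF-1 (gene Tcf7), while cytotoxic and chemokine genes can stay active.

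The T cell and CD8 identity was clear in most of the chosen cells, with 2 small exceptions. RNA of both CD8 chains was found in 184 of 215 (85.6%) cells of the MWA library and in 178 of 206 (86.4%) of the MWA plus TIGIT library. Only 10 and 12 cells had been admitted on a single CD8 UMI. In these, Foxp3, which encodes the defining factor of regulatory T cells, stood at 211 and 420 CPM (counts scaled to a total of 1000000 UMIs), against 2.15 and 17.4 CPM in the 143 and 144 cells with 6 or more CD8 UMIs. Over all chosen cells Foxp3 stood at 9.55 and 30.7 CPM, with a UMI in 7 (3.26%) and 15 (7.28%). Cd4 was 0 by the rule, and Cd40lg, another CD4 T cell gene, was at 2.39 and 1.70 CPM.

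The second exception was macrophage RNA. The 7 macrophage markers together, of which 5 passed the size limits given below, stood at 918 CPM in the MWA and 1948 CPM in the MWA plus TIGIT cells. More than 20 UMIs of these markers were carried by 1 MWA cell and 9 MWA plus TIGIT cells. All 10 were also called doublets, 2 cells under 1 barcode, by a simulation-based score, and the 9 held 53.1% of the list's UMIs in their library. The median was 5 UMIs a cell in each library. Because these barcodes were unevenly split, each comparison between the libraries is given with and without them where they matter. Markers of other lineages were lower in sum. The 4 B cell markers stood at 46.9 and 58.0 CPM, the 3 neutrophil markers at 4.77 and 10.2 CPM, the 3 tumor epithelial markers at 0.80 and 1.70 CPM, and the 4 dendritic markers at 102.6 and 64.8 CPM, nearly all of it H2-Ab1. Krt8, Krt18 and Clec9a were at 0 in both libraries, and Cd79a and Ms4a1 at 0 in the MWA library. The 3 gamma-delta markers stood at 124 and 54.6 CPM, nearly all of it Tcrg-C2, which was seen in 28.4% and 13.6% of the cells, while Trdc was at 3.98 and 0.85 CPM. The NK marker list stood at 148 and 152 CPM, most of it Klre1, a receptor gene that CD8 T cells also use.

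The MWA plus TIGIT library was deeper over all kept barcodes, with a median of 6838 UMIs against 5747, while the chosen cells were of like depth. They had a median of 5428 UMIs (MWA) and 5131 UMIs (MWA plus TIGIT), and 1647 and 1659.5 detected genes, from libraries of 66152465 and 78751205 UMIs. Of 37 barcodes that occurred in both libraries, none was chosen in both, and 6 chosen cells carried such a barcode.

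Most exhausted CD8 T cells had 5 or fewer UMIs of the genes that chose them. In the MWA library 76 cells (35.3%) had exactly 2 UMIs of the 3 receptor genes, 101 (47.0%) had 3 to 5 and 38 had 6 or more. In the MWA plus TIGIT library the numbers were 94 (45.6%), 80 (38.8%) and 32. Just outside the limit, with 1 UMI, were 143 and 213 cells. Deeper cells pass such a rule more easily. The median depth was 3681 and 3550 UMIs at 0 receptor UMIs, 4210 and 3831 at 1 and 4385.5 and 4190 at exactly 2. It was 5531 and 5489 UMIs at 3 to 5 and 7449.5 and 6964 at 6 or more. The 3 genes were combined differently from cell to cell. All 3 were seen in 32 (14.9%) and 36 (17.5%) cells, and a single gene in 61 (28.4%) and 83 (40.3%). Cells with Pdcd1 and Lag3 but no Havcr2 numbered 79 and 48. Cells with Lag3 alone numbered 19 and 34. Pdcd1 stood at 307 and 270 CPM over all the cells, Havcr2 at 107 and 124 and Lag3 at 239 and 234.

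The exhausted CD8 T cells were then set beside the 967 MWA and 1029 MWA plus TIGIT CD8 T cells that had no UMI of the 3 genes, called receptor-negative here. Genes were compared if they reached 50 CPM in either set and 20 UMIs in all, separately in each library. Of 2231 such genes, 73 (3.27%) were at least 2-fold higher in the exhausted cells in both libraries and 19 (0.852%) were at least 2-fold lower. The median log2 ratio over all these genes was 0.08 in each library. Pdcd1, Havcr2 and Lag3 themselves are among the 73. Since the cells were chosen on these same counts, what follows describes the chosen cells and has no test.

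The named genes that stood furthest above the receptor-negative cells were Gzmf, Nrgn, Ccl1, Csf2, Csf1 and Rgs16. Rgs16, a brake on G protein signalling, stood at 348 CPM in the MWA and 293 CPM in the MWA plus TIGIT cells, against 20.03 and 20.95 CPM in the receptor-negative cells. Nrgn, whose protein binds calmodulin, stood at 240 and 263 CPM against 6.59 and 3.17. Tnfrsf9, the costimulatory receptor 4-1BB, stood at 472 and 329 CPM against 55.3 and 47.3. For these 3 genes both libraries placed the exhausted cells above the receptor-negative cells. That follows from how they were named, by the smaller of the libraries' ratios.

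Several named genes encode secreted factors. Xcl1, a chemokine that draws cross-presenting dendritic cells, stood at 1279 and 2151 CPM against 271 and 144. Ccl1, a ligand of CCR8, stood at 163 and 590 CPM against 4.82 and 0.97. Csf1 and Csf2, the macrophage and granulocyte-macrophage growth factors, were at 52.5 and 56.3 CPM (Csf1) and at 81.2 and 52.9 CPM (Csf2), against at most 2.03 CPM in the receptor-negative cells. Csf2 came from 10 and 11 cells. Gzmf, a granzyme gene of strongly activated killer cells, stood at 422 and 118 CPM against 0 and 0.49, which is at least 9.11 on the log2 scale in the MWA library with 3 counts as the floor. Other named genes of this group were Sema6d (70.0 and 81.0 CPM against 6.09 and 5.36), Cd200 (54.9 and 69.0 against 7.35 and 5.12), Dusp4 (63.7 and 79.3 against 13.4 and 14.9), Irf8 (169 and 168 against 30.7 and 22.2), Itgav (102 and 88.6 against 20.8 and 19.7), Lat2 and Chn2.

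The upstream DNA of the 4 named genes furthest above the receptor-negative cells is shown because NFAT and NR4A factors, which act downstream of the T cell receptor, are known to shape the exhausted program. Each line gives the 250 bases before the gene's first listed RefSeq start site. They are read in the direction of the gene from GRCm38.p6, the patch of the build that the count matrices name as mm10. Capitals mark matches to GGAAA, the core letters that NFAT factors bind, on either strand (TTTCC on the other).
Gzmf, chr14:56211408-56211657, minus strand: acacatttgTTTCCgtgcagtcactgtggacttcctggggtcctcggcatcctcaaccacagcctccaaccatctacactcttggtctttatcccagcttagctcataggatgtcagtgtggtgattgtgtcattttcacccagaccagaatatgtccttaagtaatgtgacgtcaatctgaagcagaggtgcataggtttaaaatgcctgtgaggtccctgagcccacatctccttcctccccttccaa
Nrgn, chr9:37552746-37552995, minus strand: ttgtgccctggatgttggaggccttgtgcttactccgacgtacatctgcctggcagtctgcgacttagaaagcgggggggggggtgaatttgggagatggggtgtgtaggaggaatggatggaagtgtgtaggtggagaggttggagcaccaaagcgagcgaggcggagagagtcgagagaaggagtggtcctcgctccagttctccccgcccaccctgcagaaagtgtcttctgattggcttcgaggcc
Ccl1, chr11:82179813-82180062, minus strand: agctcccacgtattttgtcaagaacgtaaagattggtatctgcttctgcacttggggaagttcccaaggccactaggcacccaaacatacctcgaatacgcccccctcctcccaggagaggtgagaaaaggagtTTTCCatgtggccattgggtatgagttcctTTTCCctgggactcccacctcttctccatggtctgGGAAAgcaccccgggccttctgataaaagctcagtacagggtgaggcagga
Csf2, chr11:54249900-54250149, minus strand: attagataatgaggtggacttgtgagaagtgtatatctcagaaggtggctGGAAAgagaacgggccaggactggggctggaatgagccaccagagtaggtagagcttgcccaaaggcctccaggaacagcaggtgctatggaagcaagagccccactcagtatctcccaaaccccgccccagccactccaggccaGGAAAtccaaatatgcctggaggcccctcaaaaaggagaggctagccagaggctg

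Ccl1 held 3 matches, Csf2 2, Gzmf 1 and Nrgn 0. Of the 15 named higher genes 13 were matched to a promoter, and 7 of the 13 held at least 1 GGAAA core, against 55.6% of all 32851 promoters of this length. The AP-1 letters TGANTCA were in 0 of 13 against 6.75% of all promoters, and the NR4A letters AAAGGTCA in 0 of 13 against 1.34%. A GGAAA core was thus about as frequent in these promoters as in any, and a match is letters only, not a bound site. Other start sites of the 13 genes were not read, while the set of all promoters can hold several for a gene.

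Genes of memory and recirculation were among those lower in the exhausted cells. Tcf7, encoding TCF-1, stood at 18.3 CPM in the MWA and 19.6 CPM in the MWA plus TIGIT cells against 93.1 and 99.9 CPM in receptor-negative cells. Lef1, its close relative, stood at 6.37 and 15.3 CPM against 74.8 and 72.6. S1pr1, the receptor by which T cells leave tissue for blood, stood at 8.75 and 18.8 CPM against 76.3 and 89.2. Klf2, which drives S1pr1, stood at 86.7 and 76.7 CPM against 271 and 257. All 4 were below the receptor-negative level in each library, as the requirement of a lower level in both libraries implies. Of the effector genes, Gzma (granzyme A) stood at 170 and 263 CPM against 933 and 928, and Ly6c2, a surface protein of circulating effector and memory cells, at 189 and 626 CPM against 1269 and 1771. Ccl5, a chemokine abundant in effector cells, was also at least 2-fold lower, at 2757 and 4978 CPM against 7474 and 10996.

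By function, and beside the shares of 3.27% higher and 0.852% lower over all genes, 5 of 13 transcription factors of exhaustion and effector function that could be compared were at least 2-fold higher in both libraries (Tox, Nr4a2, Irf8, Ikzf2 and Rbpj) and 0 lower. The count was 2 of 7 for inhibitory receptors outside the rule (Ctla4 and Cd200), 2 of 10 for costimulatory receptors (Tnfrsf9 and Tnfrsf4) and 3 of 15 for dampeners of signalling (Rgs16, Rgs2 and Dusp4). Of 10 stem-like and memory genes 0 were higher and 5 lower, with a median log2 ratio of -1.52 in the MWA and -1.04 in the MWA plus TIGIT library. Of 14 cytotoxic genes 3 were higher (Gzmf, Prf1 and Tnfsf10) and 2 lower (Gzma and Gzmk). Of 9 glycolysis genes 2 were higher (Pgk1 and Tpi1). None of 22 oxidative phosphorylation genes, 15 immediate early genes, 16 interferon-gamma response genes or 12 genes of the T cell receptor signalling chain was past 2-fold in both libraries.

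For Rgs16, Nrgn and Tox the same order was found when the sorted cells were thinned to equal depth. The sorting itself was done at full depth, with medians of 5428 and 5131 UMIs (exhausted) and 3681 and 3550 UMIs (receptor-negative). Thinning afterwards cannot remove the part of depth in that choice. With each cell thinned to 1000 UMIs, an Rgs16 UMI was found in 25.1% and 19.5% of exhausted cells against 1.78% and 1.47% of receptor-negative cells (56.3% and 47.6% of exhausted cells before thinning). An Nrgn UMI was found in 17.2% and 14.1% against 0.10% and 0.29%, and a Tox UMI in 8.84% and 5.37% against 2.31% and 2.65%. A Gzmb UMI was less frequent in the thinned exhausted cells, at 23.3% and 31.7% against 26.3% and 37.1%, though its CPM was higher in them. Among thinned cells that should lack these genes, Xcl1 was seen in 1 of 29 neutrophils of the MWA library, Rgs16 in 1 of 39 of the MWA plus TIGIT library and Ccl1 in 1 of 67 MWA B cells. Of 67 and 52 B cells none had an Rgs16, Nrgn, Tox, Tnfrsf9 or Xcl1 UMI, which allows shares of up to 5.36% and 6.85% by the exact binomial upper bound. Median depths before thinning there were 1995.5 and 2422 UMIs.

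Cells just outside the limit held levels between those of the other sets for Rgs16, Nrgn, Tnfrsf9, Tcf7, Lef1 and S1pr1, and here the libraries stood apart. In the cells with 1 receptor UMI, Rgs16 stood at 161 CPM (MWA) and 47.0 CPM (MWA plus TIGIT), a log2 ratio of -1.78 (95% interval -2.32 to -1.26). Tnfrsf9 stood at 261 and 118 CPM there, a log2 ratio of -1.14 (-1.498 to -0.79), and Xcl1 at 832 and 378 CPM, also -1.14 (-1.34 to -0.94). Ly6c2 went the other way, at 735 and 1988 CPM, with a log2 ratio of 1.44 (1.29 to 1.58). Within the exhausted cells, the level of Rgs16 at 2, 3 to 5, and 6 or more receptor UMIs was 255, 348 and 459 CPM in the MWA library and 147, 375 and 394 CPM in the MWA plus TIGIT library. For Tcf7 the same steps were 38.4, 10.1 and 10.0 CPM and 24.9, 24.9 and 0 CPM. Tox did not follow the steps within the exhausted cells, at 121, 127 and 130 CPM and 81.4, 76.7 and 72.5 CPM. Median depth rose over the same steps in both libraries.

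**Figure D1:**
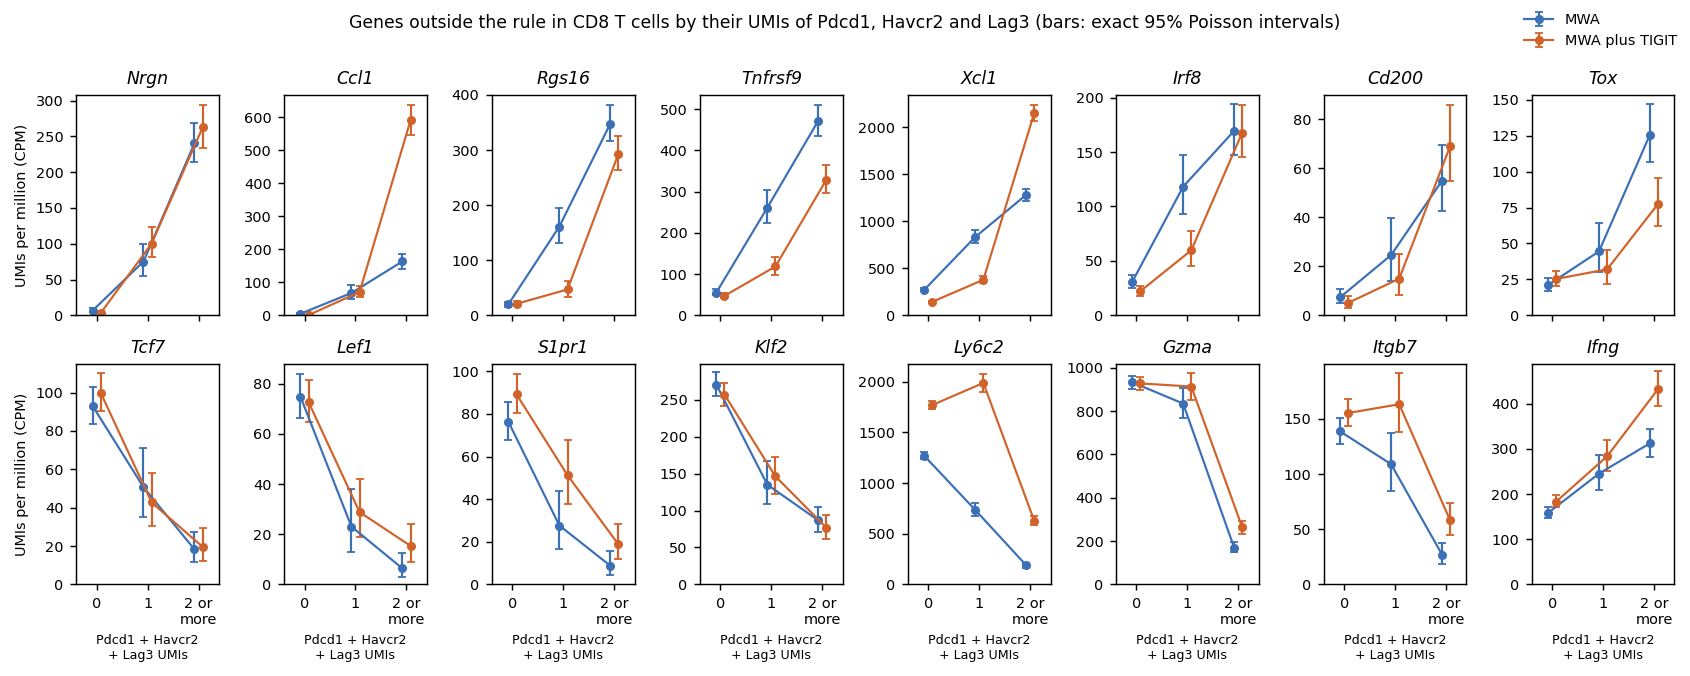
CPM (y axis, linear, from 0) of 16 genes outside the rule in CD8 T cells with 0, 1, and 2 or more UMIs of Pdcd1, Havcr2 and Lag3 (x axis), with a line for each library and bars for exact 95% Poisson intervals, which cover counting error only. Nrgn, Rgs16 and Tnfrsf9 climb from left to right in both libraries (Rgs16 from 20.03 to 348 CPM in the MWA library), Tcf7, Lef1 and S1pr1 descend, and for these 6 genes the cells with 1 UMI lie between.

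The exhausted CD8 T cells held a larger group led in CPM by granzyme genes and a smaller one led by Ccl1 and Csf2. The cells were split into 3 by k-means on 1000 variable genes. Genes of the rule, receptor segments and cell cycle genes were left out and library means removed. Leading genes were ranked by CPM in the group against CPM in the other exhausted cells, which a few rich cells can carry. Group 1 held 309 cells, 163 (75.8%) of the MWA and 146 (70.9%) of the MWA plus TIGIT cells. It was led by Gzmf, Osgin1, Tcrg-C2, Gzma, Gzmc and Gzmk. Most of its cells had no UMI of these granzymes. Gzmf was seen in 11.97% of them, Gzma in 14.24%, Gzmc in 7.44% and Gzmk in 24.92%. Gzmb was seen in 58.25% and Ccl5 in 85.76%, against 21.43% and 54.46% of the other exhausted cells. Group 2 held 101 cells, 51 (23.7%) and 50 (24.3%). It was led by Ccl1, Csf2, Ccr7, Foxp3, Igfbp7 and Gpm6b, with the regulatory T cell gene Izumo1r also among its first 10. Ccl1 was seen in 51.49% of its cells, but Csf2 in only 14.85%. Group 3 held 11 cells, 1 and 10, was led by the monocyte genes Ccl2, Il1b, Ccl7 and Tgfbi, and had a median of 10478 UMIs. Of its 11 cells 10 carried over 20 macrophage UMIs. The share of group 1 differed by -4.94 points between the libraries (95% interval -13.7 to 3.83) and that of group 2 by 0.55 points (-7.91 to 9.04). Removing the library means before the split can draw the shares of the libraries together. These differences therefore cannot show whether the groups kept their size. The split depends on the number of groups asked for. With 2 groups the same 11 cells stood apart from 410 others. With 4, the groups of 306 and 103 cells had median depths of 5802 and 3748 UMIs. The group of 306 held 82.8% and 62.1% of the libraries, a difference of -20.7 points (-29.1 to -11.9). The group of 103 held 16.7% and 32.5%, a difference of 15.8 points (7.27 to 24.1).

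Groups 1 and 2 were described by levels outside the choice of cells, though not outside the clustering. Ccl5 stood at 3300 and 6819 CPM in group 1 and at 994 and 1261 CPM in group 2. Gzmb stood at 614 and 926 CPM against 121 and 323, and Gzmf at 551 and 180 CPM against 0 and 0. Group 2 instead held Xcl1 at 3636 and 5647 CPM against 576 and 1025 in group 1, Ccl1 at 628 and 2186 CPM against 23.9 and 45.5, Nrgn at 704 and 642 CPM against 102 and 148, and Tnfrsf4 (OX40) at 469 and 576 CPM against 117 and 97.6. Of the receptors that chose the cells, Pdcd1 was at 299 and 278 CPM in group 1 and 331 and 290 CPM in group 2. Havcr2 was higher in group 1, at 117 and 138 CPM against 72.5 and 66.6, and Lag3 in group 2, at 342 and 313 CPM against 209 and 226. Tox was at 124 and 72.8 CPM in group 1 and at 131 and 93.2 CPM in group 2. Of the exhausted cells admitted on 1 CD8 UMI, 5 of 10 and 11 of 12 were in group 2. Group 2 cells with 3 or more CD8 UMIs, 45 of 51 and 37 of 50, still held Xcl1 at 3802 and 6525 CPM and Ccl1 at 664 and 2550 CPM. Foxp3 stood at 10.95 and 58.2 CPM in them.

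**Figure D2:**
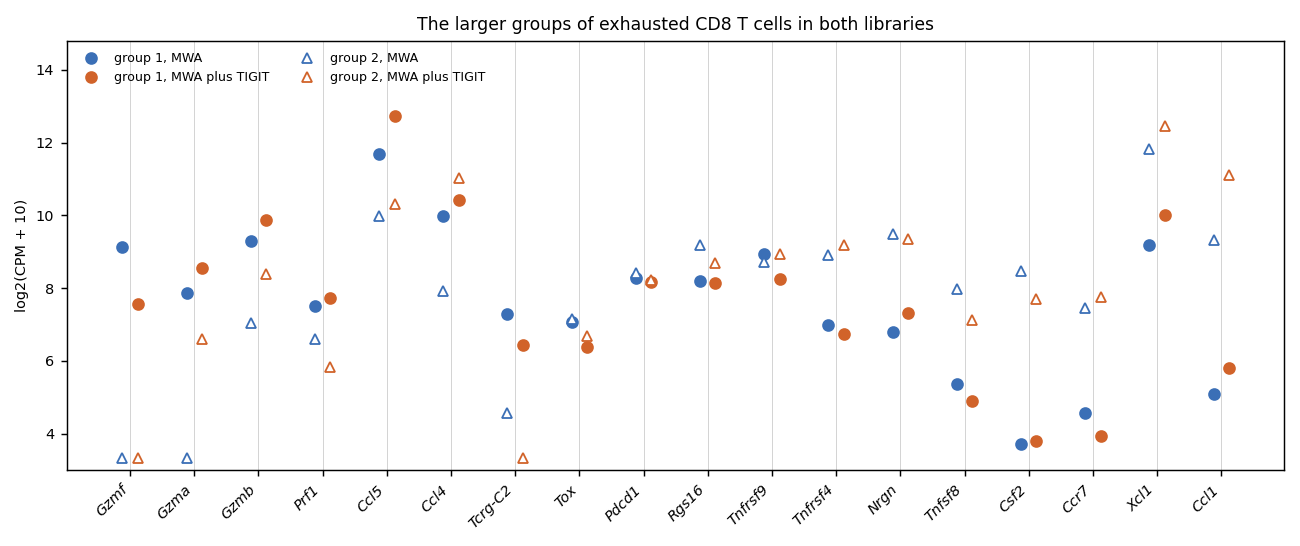
Levels of 18 genes (x axis) as log2(CPM + 10) in groups 1 (filled circles) and 2 (open triangles) of the exhausted CD8 T cells, coloured by library. Gzmf, Gzma, Gzmb and Ccl5 lie higher in group 1, Xcl1, Ccl1, Csf2, Ccr7 and Nrgn in group 2, and the Pdcd1 and Tox points lie close together.

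The first question of the design was whether blocking TIGIT after MWA altered how many CD8 T cells were exhausted. By this rule the share was 2.14% (1.87 to 2.44) of all kept barcodes in the MWA and 2.08% (1.81 to 2.38) in the MWA plus TIGIT library. Among CD8 T cells that were neither cycling nor interferon-induced it was 16.2% (14.3 to 18.3) and 14.2% (12.5 to 16.1), a difference of -2.00 points (-4.74 to 0.72). The interval included 0, and no replicate gives the spread between mice. The sign and the interval depended on the threshold. With at least 1 receptor UMI required, the difference was 1.92 points (-1.48 to 5.30), and with UMIs of at least 2 of the 3 genes it was -3.13 points (-5.44 to -0.84), from shares of 11.6% and 8.49%. Cells with exactly 1 receptor UMI were 10.8% and 14.7% of the same population, a difference of 3.92 points (1.38 to 6.44). In the cycling CD8 T cells, 2 or more receptor UMIs were seen in 25.2% and 27.7%, a difference of 2.54 points (-4.99 to 10.0). In the interferon-induced cells they were seen in 8 of 82 (9.76%) and 20 of 106 (18.9%), a difference of 9.11 points (-1.92 to 19.4). As a description of the choice, a Pdcd1 UMI was carried by 80.5% and 71.4% of the exhausted cells, a Havcr2 UMI by 37.2% and 42.2% and a Lag3 UMI by 68.8% and 63.6%.

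The second question was what the exhausted CD8 T cells expressed after MWA plus TIGIT compared with MWA alone. Of 2503 genes with at least 50 CPM in either library and 20 UMIs in all, 55 (2.2%) were at least 2-fold higher in the MWA plus TIGIT cells with a counting interval above 1, and 8 (0.32%) at least 2-fold lower with an interval below 1. The median log2 ratio of all 2503 genes was 0.13, so a gene at 0.13 stood where the typical gene did. With TMM factors, a scaling that centres most genes, every log2 ratio below would be 0.16 lower. At any size of ratio, 20.8% of the genes had a log2 counting interval above 0 and 7.35% one below 0. Most of the highest named genes were monocyte and macrophage genes (Chil3, Ccl2, Il1b, Thbs1, Ccl7, Tgfbi, Ctsh, Cxcl2, Fn1 and Ms4a6c). Ccl2 stood at 23.1 and 235 CPM, and 5 MWA plus TIGIT cells held 96.0% of its UMIs there. Without the 10 macrophage-rich barcodes Ccl2 had a log2 ratio of -1.21, and 27 genes were higher and 7 lower of 2489.

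Penk, also among the highest, encodes the opioid precursor proenkephalin. It stood at 12.7 CPM in 5 MWA cells and 56.3 CPM in 12 MWA plus TIGIT cells, a log2 ratio of 2.14 (1.34 to 3.03). In the MWA plus TIGIT library 2 cells, with 25 and 20 UMIs, held most of its 66 UMIs. In cells with 1 receptor UMI the order was opposite, at 33.8 and 4.27 CPM. Without the macrophage-rich barcodes it was the highest of the named kind at 2.27, followed by the chemokine receptor gene Cxcr3 at 2.02 (1.26 to 2.84). Cxcr3, by which T cells follow interferon-induced chemokines, stood at 15.1 CPM in 16 MWA cells and 62.2 CPM in 49 MWA plus TIGIT cells over all exhausted cells. Also past 2-fold there were Dapl1 (2.002, from 7 and 8 cells), Ccl1 (1.98), Ccl3 (1.74), Ly6c2 (1.71), Ccr2 (1.55), the receptor for CCL2, and Ifitm1 (1.28). Over all 55 higher genes, 38 were still at least 2-fold higher without the 5 cells richest in each gene, and 22 had at least 50% of their UMIs in 5 cells.

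**Figure D3:**
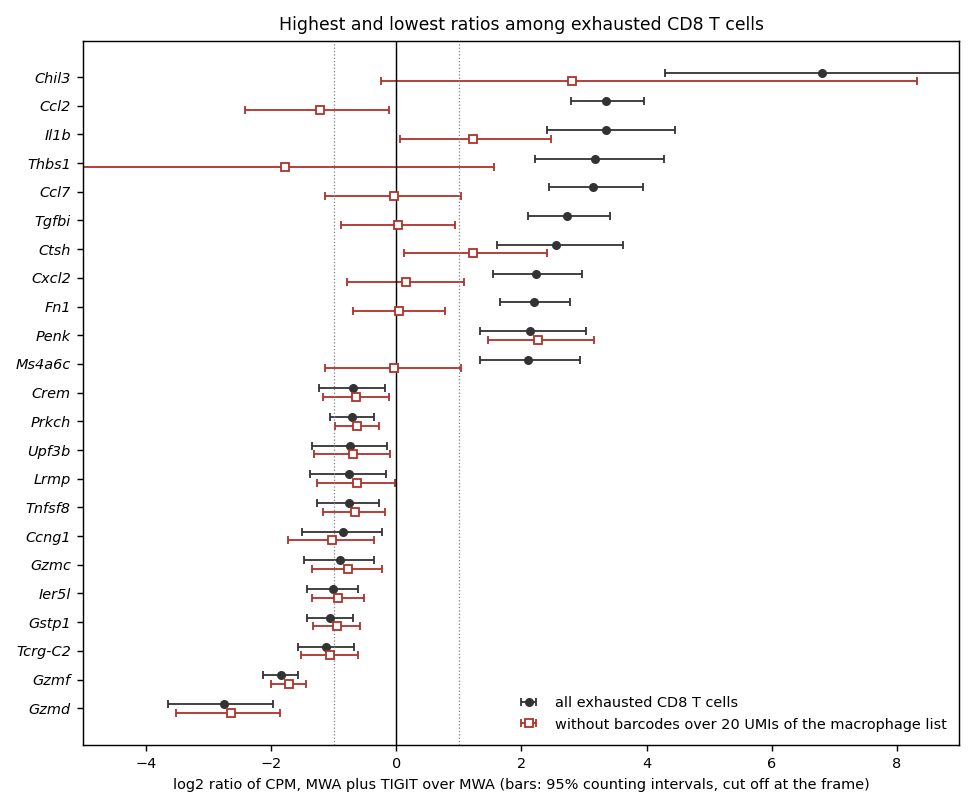
Log2 ratio of CPM, MWA plus TIGIT over MWA (x axis), of the highest and lowest named genes (y axis) in all exhausted CD8 T cells (filled circles) and without the barcodes over 20 macrophage-list UMIs (open squares), with 95% counting intervals and dotted lines at 2-fold. Ccl2 and Thbs1 cross to the left of 0 without those barcodes, whereas Penk and Gzmf stay on their side.

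The chemokine genes that could be compared were higher in the MWA plus TIGIT cells. All 5 that passed the size limits had counting intervals above 0 on the log2 scale (20.8% over all genes), 2 were past 2-fold, and their median was 0.85 against 0.13 over all genes. Ccl1 stood at 163 and 590 CPM, with a log2 ratio of 1.85 (1.63 to 2.09) and a UMI in 40 (18.6%) and 42 (20.4%) cells. Similar numbers of cells carried it in each library, and 3 MWA plus TIGIT cells with 157, 118 and 79 UMIs held 51.2% of its UMIs there. Without the 5 richest cells of each library the log2 ratio was 1.26. Ccl3 stood at 126 and 400 CPM (1.67), with a UMI in 66 and 64 cells. In the MWA plus TIGIT library 5 cells held 55.9% of its UMIs, and without the 5 richest cells of each library the log2 ratio was 0.99.

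Xcl1 and Ccl5 were carried by more cells. Xcl1 stood at 1279 and 2151 CPM, with a log2 ratio of 0.75 (0.66 to 0.84), and was seen in 43.3% and 53.9% of cells. Its 5 richest cells held 30.7% of its UMIs in the MWA and 40.5% in the MWA plus TIGIT library. In the receptor-negative cells Xcl1 stood lower in the MWA plus TIGIT library, at 271 and 144 CPM. Ccl5 stood at 2757 and 4978 CPM (0.85), and the receptor-negative cells gave 7474 and 10996 CPM. Ccl4, a chemokine of activated T cells, stood at 817 and 1435 CPM (0.81), but at 0.20 without the 5 richest cells of each library. In group 2 alone the log2 ratio was 1.80 (1.56 to 2.04) for Ccl1, 0.64 (0.52 to 0.75) for Xcl1 and 3.16 for Ccl4. The richest cells were kept in these group 2 ratios. In group 2 cells with 3 or more CD8 UMIs, Ccl4 rested on 67 and 619 UMIs. Among the sets of cells compared here, Xcl1 was thus higher in the MWA plus TIGIT library in exhausted cells and lower in both the receptor-negative cells and those with 1 receptor UMI.

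The granzyme genes went in different directions. Gzmf stood at 422 and 118 CPM, with a log2 ratio of -1.84 (-2.12 to -1.57), in 25 and 12 cells, and 1 MWA cell held 166 of its UMIs. Among the 53 and 54 exhausted cells with no C1q UMI at all the sign was opposite, at 2.82. Its 5 richest cells held 69.6% of its UMIs in the MWA and 87.0% in the MWA plus TIGIT library. Gzmd stood at 86.7 and 12.8 CPM (-2.76), in 10 and 2 cells, and Gzmc at -0.90. These genes lie side by side and are related in sequence, which could affect how their reads were counted. Gzmb, the main granzyme of killer cells, was higher, at 498 and 700 CPM (0.49), as it was in receptor-negative cells at 359 and 606 CPM (0.76). Of 16 cytotoxic genes 0 were past 2-fold higher and 2 lower (Gzmf and Gzmd), and the median was 0.06, or -0.10 with TMM factors. Of the cytokines, Ifng stood at 313 and 433 CPM (0.47) and Tnf at 35.8 and 72.5 CPM (1.02, 0.48 to 1.57).

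**Figure D4:**
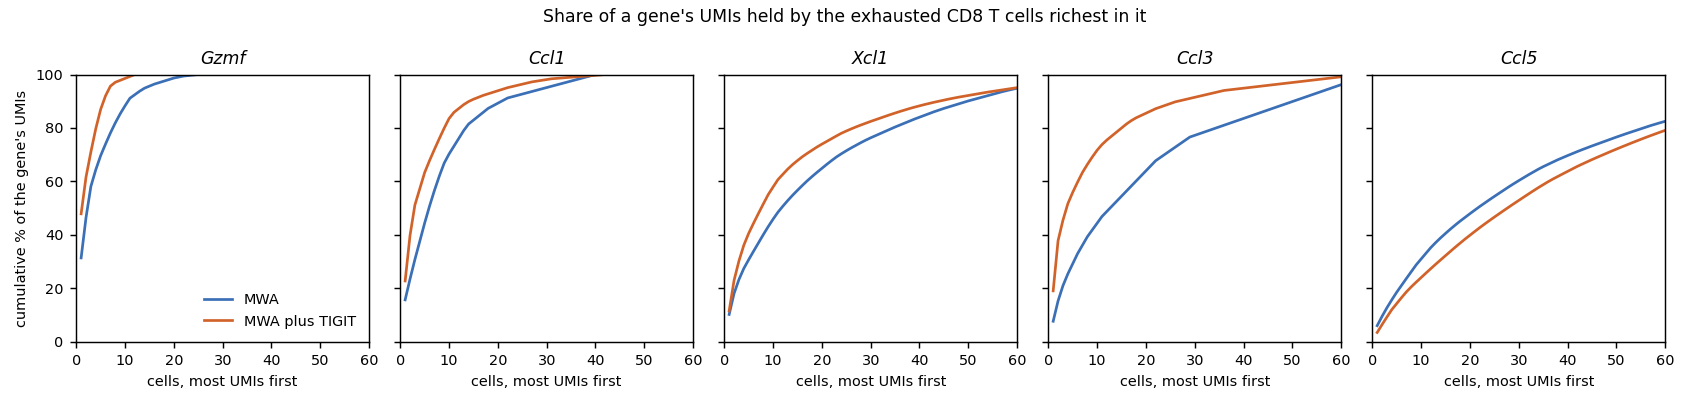
Cumulative percent of the UMIs of Gzmf, Ccl1, Xcl1, Ccl3 and Ccl5 (y axis) over the exhausted CD8 T cells ordered from most UMIs of that gene (x axis, first 60 cells), with a line for each library. Gzmf reaches 69.6% and 87.0% within 5 cells, while Ccl5 reaches 18.5% and 14.2%.

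Among the regulators of exhaustion, Tox was lower in the MWA plus TIGIT cells by less than 2-fold. Tigit, whose protein the antibody was raised against, stood at 14.3 and 19.6 CPM, with a log2 ratio of 0.45 (-0.50 to 1.43). Ctla4 stood at 177 and 178 CPM. Of the 15 inhibitory receptors listed outside the rule 7 could be compared, 0 of these were past 2-fold (2.2% higher and 0.32% lower over all genes), and the median was 0.25. Cd226, the activating receptor that competes with TIGIT for the same ligands, stood at 128 and 208 CPM, with a log2 ratio of 0.70 (0.41 to 1.00). Tnfrsf9 stood at 472 and 329 CPM (-0.52, -0.71 to -0.33). Tox, the factor that holds the exhausted state, stood at 126 and 77.6 CPM, with a log2 ratio of -0.70 (-1.09 to -0.32), while in the receptor-negative cells it was at 21.05 and 25.3 CPM. Rgs16 was at -0.25. Of 16 transcription factors 2 were past 2-fold higher, Maf (1.15) and Zeb2 (1.11, and 0.52 without the macrophage-rich barcodes), and the median was 0.16, which is 0 within rounding with TMM factors.

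Receptors for entry into tissue and the stem-like genes were somewhat higher in the MWA plus TIGIT cells. Of 15 homing and residency genes 3 were past 2-fold higher (Ccr2, Cxcr3 and Itgb7), 10 had counting intervals above 0 and 0 below (20.8% and 7.35% over all genes), and the median was 0.39. Ccr2 stood at 34.2 and 144 CPM, and Itgb7 at 27.1 and 58.0 CPM. The direction was the same in receptor-negative cells, with Ccr2 at 74.8 and 162 CPM, Cxcr3 at 78.4 and 118 and Itgb7 at 139 and 155. In cells with 1 receptor UMI they stood at 73.7 and 228 CPM (Ccr2), 62.9 and 112 (Cxcr3) and 109 and 163 (Itgb7). Of 6 stem-like and memory genes 1 was past 2-fold (Ly6c2) and the median was 0.36. Other lists stood closer to the median of all genes, with 0.27 for 17 immediate early genes, 0.20 for 10 NF-kB genes, 0.20 for 12 genes of the T cell receptor signalling chain, 0.15 for 14 interferon-gamma response genes, 0.05 for 10 glycolysis genes and -0.01 for 16 dampeners of signalling. Of the 17 immediate early genes, though, 9 had counting intervals above 0 and 0 below, and 1 was past 2-fold higher. That 1 gene was not among the 27 genes higher without the macrophage-rich barcodes. The 9 intervals include those barcodes. With TMM factors the glycolysis and interferon-gamma lists also stood below 0, at -0.11 and -0.01. The 22 oxidative phosphorylation genes had a median of -0.12, and 8 had counting intervals below 0, against 7.35% of all genes.

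T cell receptor segments were unevenly split between the libraries. A UMI of Trav16, a variable segment of the receptor alpha chain, was seen in 2 (0.93%) exhausted cells of the MWA and 32 (15.5%) of the MWA plus TIGIT library. The same difference was present in the receptor-negative cells, 17 (1.76%) and 213 (20.7%), and in cells with 1 receptor UMI, 2 and 74 (34.7%). Trav16n, a near-identical segment, was seen in 37 (17.2%) and 8 (3.88%) exhausted cells, and the beta chain segment Trbv3 in 28 (13.02%) and 6 (2.91%). Of the 37 MWA cells with Trav16n, 36 were in group 1. The 3′ libraries read such segments in few cells, and counting could split Trav16 and Trav16n, so the shares are lower limits of use and their split is uncertain.

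Cells with these segments also differed in other genes. In the MWA plus TIGIT library, exhausted cells with a Trav16 UMI held Ly6c2 at 1793 CPM against 425 CPM in the others, Gzma at 662 against 195 CPM, and Ccl5 at 11695 against 3821 CPM. Gzmf was at 0 in them against 138 CPM. In the MWA library, cells with Trav16n held Tcrg-C2, a constant segment of the gamma chain, at 259 CPM against 86.5 CPM in the others. Without the Trav16 cells the log2 ratio of MWA plus TIGIT over MWA was 0.48 for Ccl5 in place of 0.85, and 0.18 for Gzma in place of 0.63. The treatment and the mice behind each library cannot be told apart with 1 library in each group.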

How the data were processed

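CD45+ cells of 2 libraries, 1 from each group, were measured. The authors deposited raw counts of UMIs for each gene and barcode, made with Cell Ranger (6.1.1 in the submitters' processing notes, 4.0.0 in the matrix header) on the mouse mm10 build, for 32285 genes. Replicates could not be compared. Depth is given in the report. Barcodes were selected by the stated rule, whose members and gene lists were chosen with earlier results of these data known. UMIs were summed over the selected cells of each library and divided by their total (CPM). Genes needed 50 CPM in 1 library and 20 UMIs in all. Ratios carried exact conditional binomial 95% intervals, levels exact Poisson intervals and shares exact binomial (Clopper-Pearson) intervals. The difference of 2 shares was a Newcombe-type combination. A level of 0 was replaced by a floor of 3 counts over the group where a bound is given. Named genes were those of the rule, the 12 highest and 12 lowest ratios between the libraries, the 15 highest and 10 lowest against receptor-negative cells, and the gene lists, with predicted, ribosomal, mitochondrial, histone and receptor segment genes counted apart. Of these, 1 named gene is not reported here. Doublets were scored by neighbours of simulated doublets and kept in the main values. Software was Python 3.11.15, numpy 2.4.6, scipy 1.17.1, pandas 2.3.3, scikit-learn 1.9.0 and edgeR 4.0.16 (TMM factors only). The interval code was tested on simulated data. Promoters were taken from RefSeq (GRCm38.p6). Alternatives are given at the end.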

Additional observations from a re-analysis of the deposited data

How the results depend on the processing

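No paired analysis was possible because each group was 1 library, so leaving out a replicate could not be done either. Under 15 alternatives, 449 gene ratios moved by less than their counting interval, 137 moved further and 17, all of genes past 2-fold, changed sign. A further 24 sign changes, counted in the first numbers, were in 8 genes not past 2-fold. Gzma ranged from -1.48 to 3.01, Gzmc from -2.90 to 3.01, Cd200 from -0.73 to 1.43, Tigit from -0.51 to 1.19 and Ikzf2 from -0.32 to 0.47, and Ctla4, Cxcr6 and Nrgn also crossed 0. The alternatives with macrophage-rich barcodes, the richest cells or cells with 1 CD8 UMI left out were chosen after seeing the data. The difference in share was 1.92 points with at least 1 receptor UMI. The 55 genes higher in the MWA plus TIGIT cells became 108 without barcodes over 5000 UMIs (13 shared), 25 without doublets (19), 31 with at least 1 and 119 with at least 4 receptor UMIs, 110 with no C1q UMI (17), 27 without macrophage-rich barcodes (20), 36 with TMM factors, 401 with no limit on low values and 21 at 100 CPM. The 8 lower genes became 59 without barcodes over 5000 UMIs, 31 after thinning to 2000 UMIs, 18 with at least 4 receptor UMIs, 24 with no C1q UMI and 91 with no limit. Against receptor-negative cells, the 73 higher genes became 33 with at least 1 receptor UMI, and the 19 lower genes became 10 without barcodes over 5000 UMIs, 4 with at least 1 and 39 with at least 4 receptor UMIs. Fewer cells (such as 53 and 54 with no C1q UMI) entered most of the settings with larger counts.

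The 17 sign changes of genes past 2-fold were as follows. Without barcodes over 5000 UMIs the log2 ratio was -3.69 for Ccl2, -3.16 for Thbs1 and -0.25 for Ccl7. Without doublets it was -1.14 for Ccl2, -1.76 for Thbs1, -0.026 for Ccl7 and -0.026 for Ms4a6c. Without macrophage-rich barcodes it was -1.21 for Ccl2, -1.78 for Thbs1, -0.042 for Ccl7 and -0.042 for Ms4a6c. Without the 5 richest cells it was -0.61 for Ccl2 and -0.28 for Ccl7. Ctsh was at -0.89 after thinning, and with no C1q UMI Ctsh was at -0.34, Gzmf at 2.82 and Tcrg-C2 at 0.074. The causes were not tested. Xcl1, Ccl1, Ccl3 and Gzmb stayed above 0 and Tox and Tnfrsf9 below 0 under all 15 alternatives, from 0.28 to 1.14 for Xcl1 and from -0.85 to -0.27 for Tox. The Xcl1 ratio moved by less than its counting interval in only 5 of the 15, and the Tox ratio in 14.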
